A study of Mus musculus with 4 samples.

Results

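Tmprss2 and 9 genes beside it on mouse chromosome 16 were followed in prostate RNA of TMPRSS2:ERG mice. Tmprss2 is the mouse counterpart of the gene whose locus carries the transgene. The 10 genes were chosen by name around that locus among the 23242 rows of the deposited table. Earlier results of these data were known at that point, and other genes lie between and beside them. In order of start they are Igsf5, Pcp4, Bace2, Mx1, Fam3b, Mx2, Tmprss2, Ripk4, Prdm15 and C2cd2. All 10 were found, with 1 row each. The tissue was ventral and dorsal prostate lobe from mice on the FVB background, with 2 animals homozygous for the transgene (mice 26 and 29) and 2 wild-type animals (mice 27 and 28), and each mouse gave its own library. No source used here gives their age. In the transgene, human ERG exons 4 to 11, behind a floxed GFP cassette, sit in a bacterial artificial chromosome clone with the TMPRSS2 locus. Cre protein was injected into the pronucleus to give the fusion allele, and the homozygotes come from a single germline sub-line, so insertion site and transgene cannot be told apart. The labels state no transgene or Cre for the wild types.

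Tmprss2 encodes a serine protease anchored in the membrane of luminal prostate cells, and androgen drives its transcription. In human prostate cancer a deletion or rearrangement often joins its first exons to ERG, which puts this ETS-family transcription factor under androgen control. The genes around it are a mixed group. Bace2 is an aspartyl protease related to the beta-secretase Bace1, Fam3b is a secreted cytokine-like protein known from pancreatic islets, and Mx1 and Mx2 are interferon-induced dynamin-like GTPases with antiviral roles. Ripk4 is a kinase of keratinocyte differentiation and Prdm15 a zinc-finger transcription factor. C2cd2 carries a C2 domain, Pcp4 is a small calmodulin-binding peptide, and Igsf5 is a junctional adhesion molecule of the immunoglobulin superfamily.

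Levels below are FPKM (fragments per kilobase of transcript per 1e6 fragments) divided by a scaling factor per library, called scaled FPKM. The files give no read counts, and a step in the lowest values places the libraries near 42.2 to 48.5 × 1e6 fragments, an estimate. Fold changes are log2 homozygote over wild type after adding 1, which understates change in low genes, and come from limma over the 11762 genes that averaged 1 scaled FPKM or more. A gene is called at a Benjamini-Hochberg adjusted p under 0.05. By that rule 7.65% of all tested genes were called, 4.65% higher and 3.00% lower in homozygotes. Prostate luminal markers were present in every library, with a summed level of 2175 scaled FPKM or more. Seminal vesicle genes differed widely between libraries. Svs1, with the largest fall of those tested, stood at 3.83 and 1.05 scaled FPKM in homozygous mice 26 and 29. In wild-type mice 27 and 28 it stood at 3421 and 236. Pate4 was at 4318 and 8148 in the homozygotes and 15870 and 9904 in the wild types, and was not called. Mouse Erg, on the same chromosome, was at 0.881 and 1.12 scaled FPKM in homozygotes and 1.06 and 0.926 in wild types, with overlapping groups. The human ERG exons were not analysed here.

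In homozygotes Bace2 rose and Tmprss2 and Fam3b fell, while the other 6 tested genes of the set were not called. Bace2 was 11.2-fold higher on the scale of group means, Tmprss2 was 41.0% lower and Fam3b 59.3% lower. Of the 10 genes 9 passed the filter, and 3 of those 9 were called, 1 higher and 2 lower, against the 7.65% called among all tested genes. The median log2 fold change of the 9 was -0.22, against -0.0033 over all genes tested. In 5 of the 9, both homozygotes lay above both wild types or below both, as they did in 51.1% of all tested genes. Mx2 lay under the filter and has values only.

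**Figure D1:**
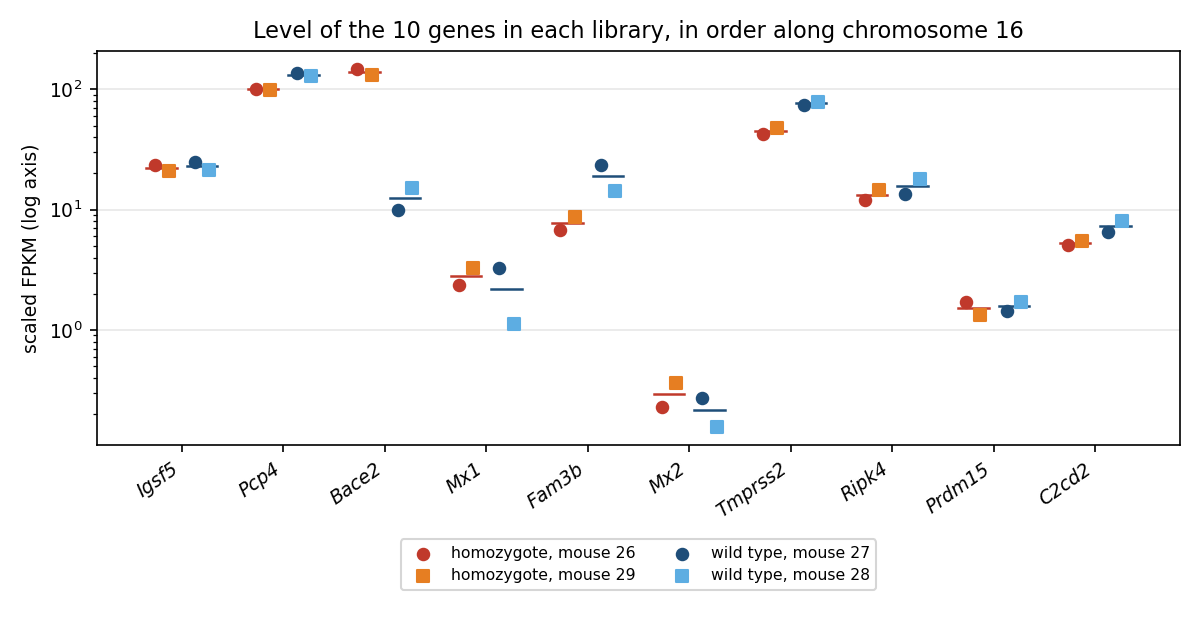
Scaled FPKM (log axis) of each of the 10 genes in the 4 libraries, ordered by start along chromosome 16, with homozygotes (mice 26 and 29) to the left of wild types (mice 27 and 28) and a short line at each group mean. Bace2 lies at 149 and 131 in homozygotes, far above 9.94 and 15.03 in wild types, while Tmprss2 and Fam3b are lower in both homozygotes.

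Tmprss2 (Entrez 50528, minus strand, chr16:97564682-97611195, mm10) is the mouse gene that matches the locus of the transgene. The promoter window at its start is shown first, since the construct was built on a TMPRSS2 locus. Those of Pcp4 and C2cd2, lower in both homozygotes but not called, are given for comparison. The sequences are from RefSeq on GRCm38.p6, 250 bases before to 50 after the start of the gene, 5′ to 3′ on the gene's strand. Capitals mark GGAA, the core bound by ETS factors, or its reverse complement TTCC. They lie at chr16:97611146-97611445 (minus strand) for Tmprss2, chr16:97922584-97922883 (minus strand) for C2cd2 and chr16:96467356-96467655 (plus strand) for Pcp4.
Tmprss2: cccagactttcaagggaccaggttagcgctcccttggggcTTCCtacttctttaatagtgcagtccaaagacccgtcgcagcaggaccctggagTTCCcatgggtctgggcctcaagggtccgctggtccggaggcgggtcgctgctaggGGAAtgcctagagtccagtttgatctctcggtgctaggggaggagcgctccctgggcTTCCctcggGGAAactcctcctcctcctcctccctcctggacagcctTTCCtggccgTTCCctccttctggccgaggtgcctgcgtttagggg
C2cd2: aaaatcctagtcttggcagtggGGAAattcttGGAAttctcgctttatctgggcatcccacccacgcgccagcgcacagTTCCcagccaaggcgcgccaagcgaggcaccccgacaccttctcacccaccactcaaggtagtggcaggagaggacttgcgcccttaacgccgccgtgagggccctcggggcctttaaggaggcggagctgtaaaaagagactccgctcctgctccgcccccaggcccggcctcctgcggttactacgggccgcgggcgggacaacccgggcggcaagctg
Pcp4: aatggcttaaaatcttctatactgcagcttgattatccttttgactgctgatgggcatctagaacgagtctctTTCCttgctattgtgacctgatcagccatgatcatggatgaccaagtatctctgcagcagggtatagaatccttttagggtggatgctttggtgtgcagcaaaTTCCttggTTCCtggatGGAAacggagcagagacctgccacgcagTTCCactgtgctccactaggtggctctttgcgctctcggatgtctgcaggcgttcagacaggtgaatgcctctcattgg

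The core occurred 7 times in the Tmprss2 window, 3 times in that of C2cd2 and 5 times in that of Pcp4, counted on both strands. Prdm15 had 2 entries, not printed, which held it 6 times and 1 time. It is a short motif: 95.7% of 21329 promoter entries for genes of the table held it at least once, with a median of 3. AGAACA, the unit repeated in androgen response elements, was in none of the 5 windows of these genes and in 16.3% of all entries. The core of an interferon-stimulated response element was also in none of these 5, against 3.35% of all entries. Both were searched on both strands, and the interferon motif can overlap GGAA. Of the 10 genes, 4 matched an entry, and the called genes Bace2 and Fam3b did not. The Tmprss2 window was 62.3% G and C, close to the 64.3% of C2cd2 and above the 48.7% of Pcp4.

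Tmprss2 stood at 42.3 and 47.9 scaled FPKM in homozygous mice 26 and 29, against 74.2 and 78.7 in wild-type mice 27 and 28. Both homozygotes were below both wild types, and within each genotype the mice were close, with mouse 29 at 1.13 times mouse 26 and mouse 28 at 1.06 times mouse 27. The mean was 45.1 ± 3.90 in homozygotes and 76.4 ± 3.15 in wild types (SD, n = 2 each), and the log2 fold change came to -0.75 (SE 0.118; adjusted p = 0.0209 by limma). An exact permutation test over the 6 arrangements of the libraries gave a two-sided p = 0.333, the smallest that 2 against 2 allows. By size it was the 396th largest fall among all tested genes and the 12th largest on chromosome 16. The call was lost without scaling (limma adjusted p = 0.0597), without mouse 26 and without mouse 29. Without mouse 26 the fold change was -0.66 and without mouse 29 it was -0.83, and in both fits the spread came from the wild types alone. No other gene in the GENCODE annotation of the same build overlaps Tmprss2. No source used here gives the species of the clone, and it was not tested whether its transcripts were counted with the mouse gene.

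Ratios within a library do not depend on scaling. Tmprss2 stood at 1.80 and 2.30 times Igsf5 in homozygotes and 2.95 and 3.70 times in wild types, on FPKM. Against Ripk4 it stood at 3.54 and 3.31 times in homozygotes and 5.54 and 4.41 times in wild types. Against Pcp4 the ratio was 0.420 and 0.483 in homozygotes and 0.544 and 0.615 in wild types. In each of these pairs both homozygotes had the lower ratio.

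In a lobe sample, fewer cells of a type and less RNA per cell cannot be told apart. Of the 9 luminal epithelium markers listed, 1 rose (Epcam, an epithelial adhesion molecule, 0.79, SE 0.145, limma adjusted p = 0.0328) and none fell, with a median of 0.17. Their summed level was 2460 and 2503 scaled FPKM in homozygotes and 2210 and 2175 in wild types, higher in both homozygotes, and 4 of the 9 had fold changes below 0. Among 21 tested genes of an androgen response list that leaves out Tmprss2, 1 rose and 2 fell, with a median of -0.03. Steap4, a metalloreductase, rose by 2.34 (SE 0.128; adjusted p = 6.66e-04 by limma). Azgp1, a secreted glycoprotein, fell by 3.26 on the log2 scale (SE 0.138; adjusted p = 3.15e-04 by limma). Slc45a3, another gene that forms fusions with ETS genes in human prostate cancer, fell by 0.88 on that scale (SE 0.143; adjusted p = 0.0233 by limma).

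Tmprss2 belongs to the type II transmembrane serine proteases, of which 20 had a row and 5 passed the filter. Of these 5, Tmprss2 fell and Tmprss4 rose. Tmprss4 was at 5.47 and 4.90 scaled FPKM in homozygotes and 2.37 and 2.16 in wild types (log2 fold change 0.92, SE 0.118, limma adjusted p = 0.0109). St14 (matriptase), a protease of epithelial surfaces, was at 43.1 and 49.1 scaled FPKM in homozygotes and 43.0 and 49.8 in wild types, with a fold change of -0.0073. The log2 fold change was -0.38 for Tmprss13 and -0.19 for Hpn (hepsin), neither called. On the per-length scale Tmprss2 was the highest of the 5 in both wild types. In homozygotes it lay beside St14, with overlapping values. Of the 15 family genes under the filter, 5 were listed at 0 in every library.

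Bace2 (Entrez 56175, plus strand, chr16:97356728-97439012, mm10) stood at 149 and 131 scaled FPKM in homozygous mice 26 and 29, against 9.94 and 15.03 in wild-type mice 27 and 28. The lower homozygote was far above the higher wild type, and the wild types themselves differed, mouse 28 at 1.51 times mouse 27. The mean was 140 ± 12.2 in homozygotes and 12.5 ± 3.60 in wild types (SD, n = 2 each), and the log2 fold change came to 3.41 (SE 0.199; adjusted p = 8.44e-04 by limma). It was the 29th largest rise among all tested genes and the largest on chromosome 16. The rise was called in each of the 13 alternatives, with fold changes between 3.14 and 3.68. In the authors' deposited table its log2 fold is 3.43. Relative to Tmprss2 in the same library, Bace2 stood at 3.51 and 2.74 in homozygotes and at 0.134 and 0.191 in wild types, so the order of these genes was opposite in the genotypes.

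Bace1, the closest relative of Bace2, was at 4.70 and 5.17 scaled FPKM in homozygotes and 4.96 and 6.47 in wild types, and the log2 fold change came to -0.17 (SE 0.146; adjusted p = 0.597 by limma). Of the 13 tested genes in a list of secretases and their amyloid precursor substrates, 1 rose and none fell, with a median of 0.15. The gene called was Ncstn (nicastrin), a subunit of gamma-secretase, at 110 and 109 scaled FPKM in homozygotes and 52.9 and 58.9 in wild types (log2 fold change 0.96, SE 0.116, limma adjusted p = 0.00911). App, the amyloid precursor itself, was at 189 and 196 scaled FPKM in homozygotes and 129 and 156 in wild types, and was not called (0.44, adjusted p = 0.158).

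**Figure D2:**
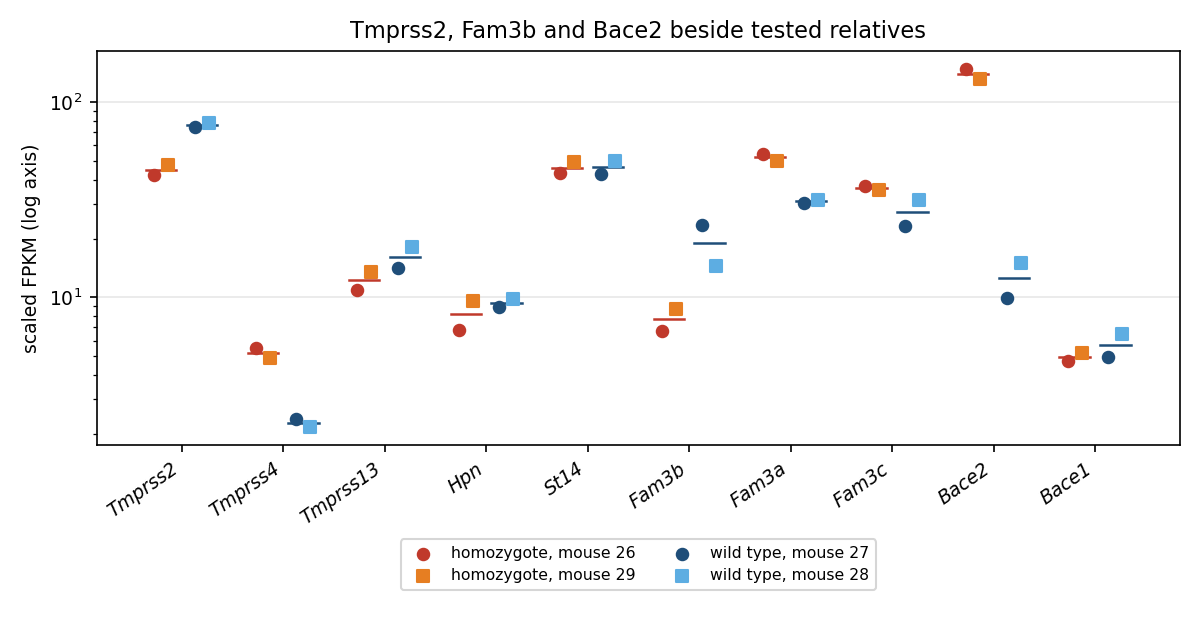
Scaled FPKM (log axis) of Tmprss2, Fam3b and Bace2 beside tested relatives in the 4 libraries, homozygotes left of wild types, with a short line at each group mean. Tmprss4 and Fam3a are higher in both homozygotes, while Tmprss2 and Fam3b are lower, and Bace1 lies between 4.70 and 6.47 in all 4 libraries.

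Fam3b (Entrez 52793, minus strand, chr16:97471086-97504936, mm10) stood at 6.75 and 8.67 scaled FPKM in homozygous mice 26 and 29, against 23.5 and 14.4 in wild-type mice 27 and 28. Both homozygotes were below both wild types, but the wild types were further from each other than the homozygotes were. The mean was 7.71 ± 1.35 in homozygotes and 19.0 ± 6.45 in wild types (SD, n = 2 each), and the log2 fold change came to -1.17 (SE 0.242; adjusted p = 0.0475 by limma). This call was the least stable of the 3, lost in 6 of 13 alternatives. Among them were the fits without mouse 26 and without mouse 29, where the wild types alone gave the spread. The fold change ranged between -1.50 without mouse 28 and -0.83 without mouse 27. Relative to Tmprss2 in the same library, Fam3b stood at 0.159 and 0.181 in homozygotes and 0.317 and 0.183 in wild types. The separation from the homozygotes in that ratio came from mouse 27, since mouse 28 lay beside mouse 29.

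Of the other FAM3 genes tested, Fam3a rose and Fam3c was not called. Fam3a stood at 54.4 and 49.9 scaled FPKM in homozygotes and 30.5 and 31.6 in wild types (log2 fold change 0.73, SE 0.107, limma adjusted p = 0.0171). Fam3c was at 37.2 and 35.3 scaled FPKM in homozygotes and 23.2 and 31.6 in wild types (0.41, adjusted p = 0.235). Among 15 tested relatives of the set other than Tmprss2 proteases, Fam3a was the 1 gene that rose and none fell, and their median was 0.02.

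Mx1 and Mx2 lie on either side of Fam3b. The deposited table pairs mouse Mx1 with human MX2 and mouse Mx2 with human MX1, and many inbred mouse strains carry defective alleles of these genes. Mx1 (Entrez 17857, minus strand, chr16:97447035-97462906, mm10) was at 2.35 and 3.27 scaled FPKM in homozygotes and 3.30 and 1.12 in wild types. The groups overlapped, since mouse 27 lay above both homozygotes and mouse 28 below them. Its log2 fold change was 0.33 (SE 0.339; adjusted p = 0.675 by limma). Without mouse 27 it was 0.84, and without mouse 28 it was -0.18, so the sign rested on which wild type was used. The authors' deposited table gives Mx1 a log2 fold of 0.62 and a q-value of 0.0286. A q-value under 0.05 was given to 14.2% of the rows of the authors' deposited table that have one.

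Mx2 (Entrez 17858, plus strand, chr16:97536081-97560901, mm10) was at 0.229 and 0.361 scaled FPKM in homozygotes and 0.274 and 0.156 in wild types, with overlapping groups. With the estimated depth and its longest coding transcript, its FPKM before scaling corresponds to about 27.1 and 44.2 fragments in homozygotes and 25.8 and 18.8 in wild types. With no filter on low values it was not called (limma adjusted p = 0.608). In both genes mouse 28 was the lowest library. Among 22 tested interferon response genes, with Mx1 and Mx2 left out, 5 rose and none fell, with a median of 0.16. Oasl2, an antiviral oligoadenylate synthetase family gene, was at 4.58 and 4.30 scaled FPKM in homozygotes and 2.07 and 1.94 in wild types (log2 fold change 0.85, SE 0.113, limma adjusted p = 0.0119). Rsad2 (viperin) rose by 1.02 (SE 0.175; adjusted p = 0.0273 by limma), and Irf7, a transcription factor of the interferon response, by 0.79 (SE 0.137; adjusted p = 0.0289 by limma).

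Distal to Tmprss2 lie Ripk4, Prdm15 and C2cd2, none of which was called. Ripk4 (Entrez 72388, minus strand, chr16:97741942-97763755, mm10) was at 11.95 and 14.5 scaled FPKM in homozygotes and 13.4 and 17.8 in wild types. The groups overlapped, and the log2 fold change was -0.22 (SE 0.170; adjusted p = 0.552 by limma). Prdm15 (Entrez 114604, minus strand, chr16:97791467-97851227, mm10) was at 1.70 and 1.32 scaled FPKM in homozygotes and 1.44 and 1.70 in wild types. Its groups overlapped, with a fold change of -0.03 (SE 0.140; adjusted p = 0.931 by limma). C2cd2 (Entrez 207781, minus strand, chr16:97855209-97922633, mm10) was at 5.13 and 5.50 scaled FPKM in homozygotes and 6.52 and 8.06 in wild types. Both homozygotes were lower, but the fold change of -0.39 (SE 0.132) did not pass, with a limma adjusted p = 0.169. Without mouse 27 it did (-0.52), in a fit that takes its spread from the homozygotes alone. In GENCODE, C2cd2 starts further upstream on the minus strand, at 97962598, so the promoter window printed above lies inside it. That longer span overlaps the row of Zfp295, while no rows of the deposited table overlap the rows of the 10 genes.

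The proximal pair, Igsf5 and Pcp4, starts more than 1 Mb from Tmprss2. Igsf5 (Entrez 72058, plus strand, chr16:96361757-96422121, mm10) was at 23.5 and 20.8 scaled FPKM in homozygotes and 25.1 and 21.2 in wild types. The groups overlapped, and the fold change was -0.06 (SE 0.129; adjusted p = 0.857 by limma). Pcp4 (Entrez 18546, plus strand, chr16:96467606-96525793, mm10) was at 101 and 99.1 scaled FPKM in homozygotes and 136 and 128 in wild types. Both homozygotes were lower, with a log2 fold change of -0.40 (SE 0.117) that did not pass (limma adjusted p = 0.120). It passed with quantile normalization (-0.49, adjusted p = 0.0437). All 8 smooth muscle markers listed had fold changes below 0, with a median of -0.58 and none called, and their summed level was 1340 and 1577 scaled FPKM in homozygotes and 2733 and 1875 in wild types. The part of smooth muscle content in the Pcp4 value was not tested. GENCODE also holds another gene entry under the name Igsf5, apart from the one above, that extends into Pcp4 on the same strand.

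**Figure D3:**
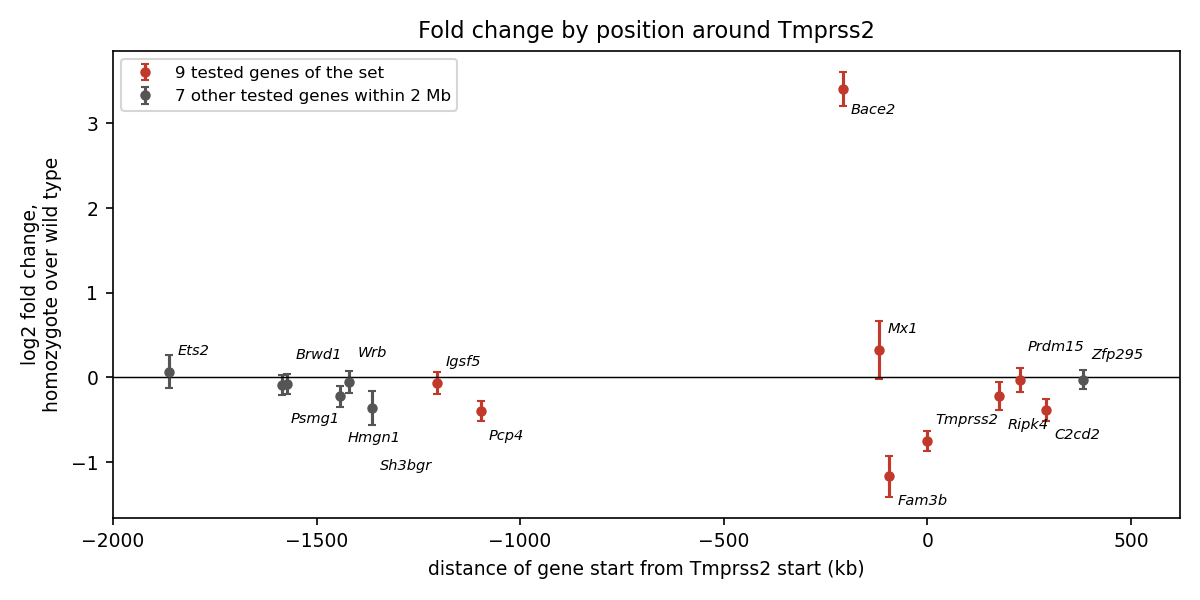
Log2 fold change, homozygote over wild type, with its standard error for each tested gene within 2 Mb of Tmprss2, against the distance of its start from that of Tmprss2 in kb. Bace2 at 3.41, Fam3b at -1.17 and Tmprss2 at -0.75 stand away from 0, and the 7 tested genes outside the set lie between -0.36 and 0.07.

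Position alone was then used to take in the genes around the set. Within 2 Mb of the start of Tmprss2 the table has 23 rows, of which 13 are other genes and 7 of these passed the filter. By limma 0 of these 7 were called, against 7.65% of all tested genes, and 0 had an unadjusted p under 0.05. So few genes cannot set the window apart from that share. Their fold changes lay between -0.36 and 0.07 (median -0.08), with 6 below 0 and 1 above. By the authors' deposited q-value 0 were called as well, against 14.2% of the rows that have one. The nearest tested gene outside the set distal to Tmprss2, Zfp295, starts 383 kb away and was at 3.35 and 3.20 scaled FPKM in homozygotes and 3.50 and 3.23 in wild types. The nearest proximal one outside the set, Sh3bgr, starts 1364 kb away and was at 12.4 and 13.8 scaled FPKM in homozygotes and 21.0 and 13.8 in wild types. It was called without mouse 28 (-0.64), in a fit that takes its spread from the homozygotes alone. The value of Sh3bgr in that wild type lay beside those of the homozygotes. The genes called near Tmprss2 did not form a run of neighbours moving one way. Bace2, 208 kb from Tmprss2 by start, rose, Mx1 at 118 kb was not called, Fam3b at 93.6 kb fell, and Mx2 at 28.6 kb was under the filter.

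The 10 genes also differed in how the animals of a genotype compared with each other. Mouse 28 was above mouse 27 in 5 of the 10 genes, namely Bace2, Tmprss2, Ripk4, Prdm15 and C2cd2. It was below mouse 27 in Igsf5, Pcp4, Mx1, Fam3b and Mx2. The widest gap between wild types was that of Mx1, with mouse 28 at 0.341 times mouse 27. Between homozygotes, mouse 29 ranged between 0.777 times mouse 26 for Prdm15 and 1.58 times for Mx2. Over all tested genes the median absolute log2 difference was 0.106 between homozygotes and 0.183 between wild types.

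**Figure D4:**
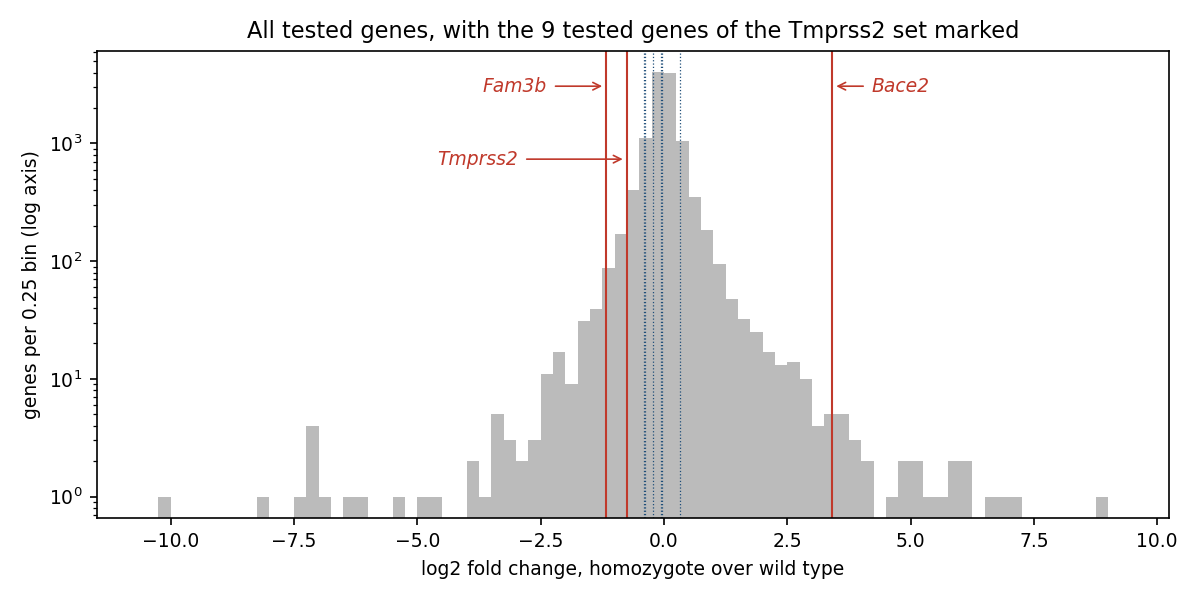
Number of tested genes (log axis) in bins of log2 fold change, homozygote over wild type, with solid red lines at the 3 called genes of the set and dotted blue lines at the 6 tested and not called. Bace2 at 3.41 lies in the sparse right tail, while Tmprss2 at -0.75 and Fam3b at -1.17 lie on the left shoulder.

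Genes elsewhere in the genome whose pattern over the 4 libraries was nearest to that of Tmprss2 were Esr2, Ccnd1 and Pmm1, measured as the Euclidean distance of log2 values centred on their mean. Ccnd1 (cyclin D1) was at 26.6 and 29.1 scaled FPKM in homozygotes and 44.2 and 47.6 in wild types, a distance of 0.0611. Esr2 (estrogen receptor beta) was at 0.783 and 0.956 in homozygotes and 1.98 and 2.16 in wild types, a distance of 0.0429. Esr2 lay near the filter, where adding 1 before the log understates its change. Pmm1, a phosphomannomutase, was at 6.57 and 7.04 in homozygotes and 11.7 and 12.5 in wild types, a distance of 0.0613. For Bace2 the nearest were Cpa3, Pde2a and Mdk, at distances of 0.294, 0.313 and 0.376. Cpa3, a mast cell carboxypeptidase, was at 35.7 and 30.5 scaled FPKM in homozygotes and 1.90 and 2.21 in wild types. Pde2a, a cyclic nucleotide phosphodiesterase, was at 89.7 and 88.2 in homozygotes and 5.53 and 6.99 in wild types. Mdk (midkine), a heparin-binding growth factor, was at 28.6 and 24.6 in homozygotes and 1.10 and 1.31 in wild types. With 4 libraries in 2 groups, any gene with a like fold change will have a like pattern.

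**Figure D5:**
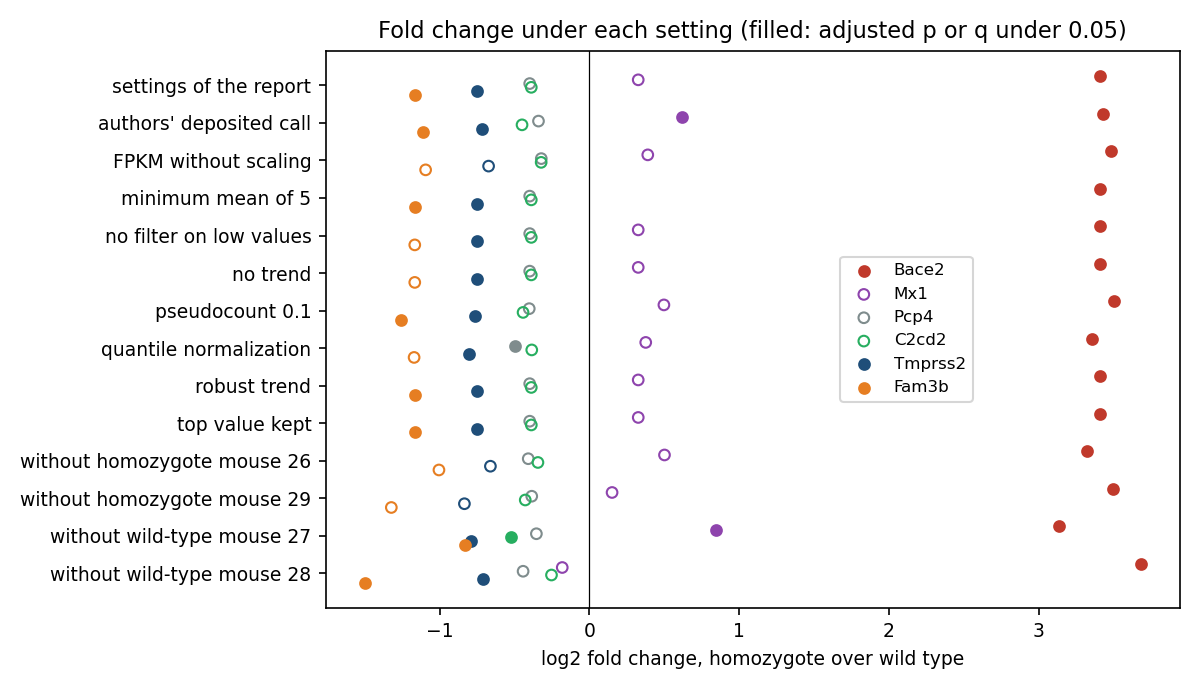
Log2 fold change, homozygote over wild type, of 6 genes of the set under the settings of the report and each alternative, filled where the adjusted p (for the authors' table the q-value) was under 0.05. Bace2 is filled throughout between 3.14 and 3.68, Tmprss2 opens without scaling and without either homozygote, and Mx1 crosses 0 without mouse 28.

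Markers of other cell types were read for the same libraries. Of 4 basal epithelium markers none was called (median 0.38), and their summed level was 220 and 184 scaled FPKM in homozygotes and 109 and 216 in wild types. None of 7 macrophage markers was called (median 0.05; summed level 57.7 and 49.6 in homozygotes, 57.9 and 40.4 in wild types). All 5 endothelial markers were below 0 and none was called (median -0.22), and neither were the 2 tested nerve markers (median -0.56) or the 4 urothelial markers (median -0.81). The summed level of all 4 listed nerve markers was 6.65 and 6.65 in homozygotes, and 7.72 and 15.6 in wild-type mice 27 and 28. For the urothelial markers it was 430 and 398 in homozygotes, and 312 and 621 in wild-type mice 27 and 28. The 5 lymphocyte markers all lay under the filter. Of 7 tested seminal vesicle markers 4 fell (median -7.16). The part of these differences in the values of Bace2, Tmprss2 and Fam3b was not tested.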

How the data were processed

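RNA sequencing libraries from prostate lobes of 4 FVB mice, 2 homozygous for TMPRSS2:ERG and 2 wild type, were analysed from 1 table. Per the submitters' processing notes TopHat 1.3 and Cufflinks 1.3 were used with build mm10. No source used here gives settings, annotation or strand handling. The table holds 1 FPKM value per gene and library as deposited by the authors, the unit being read from the values. It also holds the authors' deposited log2 fold, p-value and q-value. The top value 99999 was read as a code and treated as missing.

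Each library was scaled by a median-of-ratios factor (1.01, 1.04, 0.921 and 1.03 for mice 26, 29, 27 and 28). Log2(scaled FPKM + 1) of 11762 genes with a mean of at least 1 entered limma 3.58.1 (R 4.3.3, with trend, two-sided). The fit was also run on data simulated from its own variance model. That checks the code and cannot show how well the model holds for these libraries. With 2 residual degrees of freedom the fit leans on its prior, and FPKM values allow no count test. Starts were raised by 1. Leaving out a library leaves its group with 1, whose spread is then taken to equal that of the other group. Promoters come from a RefSeq table, transcripts and overlaps from GENCODE M21.

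The 10 genes, the 14 gene lists and the tests were chosen with earlier results of these data known. Genes named are the 10, the nearest tested gene on each side, up to 3 per list by moderated statistic with other defining markers, and the 3 nearest in pattern to Tmprss2 and to Bace2. Bace1, App, St14, Hpn, Erg, Pate4, Svs2, Svs4, Svs5 and the genes of the closing observations were named beyond that rule after their values were seen. Alternatives were other scalings, pseudocount, filters, trends, each library left out, the code kept and the authors' call.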

Additional observations from a re-analysis of the deposited data

How the results depend on the processing

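No paired analysis was possible because the genotypes share no replicate number. The rise of Bace2 kept its direction and its call in all 13 alternatives. The number of genes called over the whole table was 900, between 355 and 2028 with a library left out, and 2034 by the authors' q-value. Among the 10 genes 3 were called, 1 without scaling and between 1 and 5 with a library left out. Of the other genes within 2 Mb, 0 were called, and between 0 and 1 with a library left out (Sh3bgr, without mouse 28). The Tmprss2 fold change was -0.67 without scaling and between -0.83 and -0.66 with a library left out, and its call was lost without scaling, without mouse 26 and without mouse 29. That of Fam3b was lost without scaling, with quantile normalization, without a filter, without a trend, and without mouse 26 or 29. Signs changed in genes that were not called. Igsf5 was 0.013 without scaling and between -0.18 and 0.054 with a library left out. Prdm15 was 0.0100 without scaling, 0.042 with quantile normalization and between -0.14 and 0.075 with a library left out. Mx1 lay between -0.18 and 0.84 with a library left out. Mx1 and Prdm15 fell under the filter at a minimum mean of 5. With a library left out the fit has fewer degrees of freedom and takes its spread from the group that keeps 2 mice. Over the whole table more genes were called when 1 wild type was left out, and fewer when 1 homozygote was. The cause of these changes was not tested.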

Other observations

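Chromosome 16 outside the set was read for genes called. Of 367 tested genes with the set left out, 25 were called, 15 higher and 10 lower in homozygotes, or 6.81% against 7.65% of all tested genes. The called genes nearest to Tmprss2 beyond 2 Mb, named after their values were seen, were Kcnj15 and Sim2. Kcnj15, an inward rectifier potassium channel gene, starts 2.31 Mb from Tmprss2 and was at 15.7 ± 2.01 scaled FPKM in homozygotes and 3.08 ± 0.551 in wild types (SD, n = 2 each), and the log2 fold change came to 2.04 (SE 0.149; adjusted p = 0.00166 by limma). Sim2, a basic helix-loop-helix transcription factor gene, starts 3.48 Mb away and was at 9.12 ± 1.35 scaled FPKM in homozygotes and 1.01 ± 0.359 in wild types (SD, n = 2 each), and the log2 fold change came to 2.33 (SE 0.173; adjusted p = 0.00176 by limma).

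Some relatives of Tmprss2 under the filter were seen mainly in a single wild type. Tmprss11a was listed at 0 and 0.0294 scaled FPKM in the homozygous mice 26 and 29, and at 0 and 1.68 in mice 27 and 28. Tmprss11g was at 0.0193 and 0.00972 in mice 26 and 29, and at 0 and 1.39 in mice 27 and 28. The urothelial gene Upk3a was at 1.31 and 12.7 in mice 26 and 29, and at 1.91 and 51.7 in mice 27 and 28.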
